A study of Mus musculus and blank sample with 768 samples.

Results

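Blood vessel endothelial cells of mouse tumours were set against those of mouse lymph nodes, one cell per well, by SMART-seq2, a full-length single-cell RNA method. The tumour side was plate KM2, sorted from tumours as CD45- CD31+ GFP-, which leaves out leukocytes (CD45+) and keeps endothelium (CD31+). The lymph node side was the CD45- CD31+ GFP- wells of pools A, B and C that held 0 reads of Prox1, the transcription factor that marks lymphatic endothelium. A well on either side was kept with 50000 or more reads in genes, 1000 or more genes detected and no more than 25% of its reads from mitochondrial genes. The lymph node wells were therefore chosen by measured values, their Prox1 reads, and Prox1 supports nothing below. This gave 84 tumour wells, of 96 on the plate before the filter, and 47 lymph node wells, of 74 GFP- wells already past it. These denominators differ: a larger share of lymph node GFP- wells than of KM2 wells failed the filter. In the whole series 592 of 768 wells passed it. Of the 74 lymph node GFP- wells, the other 27 had Prox1 reads and were left out. Of them, 7 had 1 to 3 reads and the next had 14, while the 84 tumour wells, on which the Prox1 rule was not imposed, held 0 Prox1 reads in all. The labels define GFP through a Csf1r lineage for the GFP+ gates, so GFP- cells are those outside that mark. They name no strain, sex, age, animal, tumour model or treatment. With no animal named, each side is 1 sample: no test is possible. Every interval below is a 95% interval, exact Poisson for levels and exact binomial for shares. Intervals and floors cover counting error only, since reads from PCR without molecular identifiers are not independent molecules, and say nothing of the spread between animals.

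Blood endothelium takes on the character of its organ. In lymph nodes, high endothelial venules make the sulphated sugar ligands by which lymphocytes leave the blood. In growing tumours, vessels sprout under vascular endothelial growth factor (VEGF): tip cells lead, release proteases and lay down new basement membrane, and they express Angpt2, Apln and Esm1, while Notch ligands restrain their neighbours. Tumour vessels are also known for low levels of leukocyte adhesion molecules and for low oxygen around them.

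The wells held 58835 to 2672994 reads in genes in tumours, median 827490.0, and 77135 to 1971891 in lymph nodes, median 503277. With every well thinned to 100000 reads, which left out 2 wells on each side, a median of 3340 genes was detected per tumour well and 2049 per lymph node well. Tumour wells thus detected more genes at equal depth, and shares of wells with a read are read with that in view. Tumour and lymph node wells stand in separate deposited tables, so tissue, table and animals cannot be told apart. No pair of wells held identical values. In the pools, 26 lymph node wells were from pool A, 14 from pool B and 7 from pool C. Levels are counts per 1000000 reads in genes (CPM) summed over wells, and ratios are log2 of tumour over lymph node CPM with 1 CPM added to each. The median ratio over all 11199 measured genes was 0.35, and each ratio below is to be read against that shift.

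Both sides were endothelial by their markers. Wells on both sides were sorted as CD31+, so Pecam1 reads are no independent sign of identity, whereas Cdh5 and Egfl7 were not sorted on. Pecam1 (CD31) had reads in 97.6% of tumour and 91.5% of lymph node wells, Cdh5 (VE-cadherin) in 97.6% of tumour and 89.4% of lymph node wells, and Egfl7 in 98.8% of tumour and 95.7% of lymph node wells. Over the pan-endothelial list, 1 of 12 measured genes were at least 2-fold higher, 3 at least 2-fold lower and 8 within 2-fold, with a median ratio of -0.26, or -0.39 without pool A, 0.05 without pool B and -0.40 without pool C. Pecam1 was lower, at 1085 CPM in tumours against 2375 CPM in lymph nodes, as was Kdr, the main VEGF receptor, at 389.5 CPM in tumours against 1199 CPM in lymph nodes. Vwf, which encodes the platelet-binding von Willebrand factor, was higher, at 696 CPM in tumours against 142.4 CPM in lymph nodes, with reads in 94.05% of tumour and 25.5% of lymph node wells. In the lymphatic list 2 of 7 were 2-fold or more higher and 4 as much lower, with Tbx1 called higher and Ccl21a lower. Flt4, the VEGF-C receptor, stood at 133.2 CPM in tumour wells and 51.3 CPM in lymph node wells, Lyve1 49.96 CPM in tumours against 34.6 CPM in lymph nodes, and Pdpn 1.46 CPM in tumours against 10.5 CPM in lymph nodes. A well with reads in at least 3 of 6 lymphatic markers (Prox1, Lyve1, Pdpn, Mmrn1, Reln and Flt4) was found in 0 of 84 tumour and 1 of 47 lymph node wells. The rule had set Prox1 to 0 in the lymph node wells, so their count rests on the other markers and is held down by the rule.

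Genes of other cell types were at 0 in most wells. Ptprc, which encodes CD45, had 0 reads in tumour wells and reads in 1 lymph node well. The sort had already left out CD45+ cells, so the lack of Ptprc reads is no independent sign. Summed over 6 haematopoietic genes, wells ranged over 0 to 486 CPM in tumours and 0 to 134.8 CPM in lymph nodes, with reads in 11 and 5 wells. Cd53, the only one measured, had 16.6 CPM in tumours, in 9 wells, and 0 reads in lymph nodes. Over 10 macrophage genes the ranges were 0 to 230.9 and 0 to 278.2 CPM, with Adgre1 at 0 reads on both sides, and over 10 fibroblast and pericyte genes 0 to 489 and 0 to 61.2 CPM, with Col1a1, Col1a2, Dcn, Lum and Rgs5 at 0 on both sides. All 7 T cell, 6 epithelial and 5 melanocyte genes had 0 reads on both sides, as had 4 of 5 B cell genes. Over 4 platelet genes the ranges were 0 to 169.7 and 0 to 133.2 CPM, and over 4 erythroid genes 0 to 67.99 and 0 to 1.01 CPM. Stray reads did occur: C1qb, a macrophage complement gene, had reads in 9 of 84 tumour wells at a summed 0.116 CPM, so a read alone is weak evidence of expression.

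Tumour endothelium had more genes higher than lower. Of 11199 measured genes, which had at least 1 CPM and reads in 5% of wells on one side, 3740 were at least 2-fold higher in tumours (33.4%) and 2172 at least 2-fold lower (19.4%). A stricter call rule asked also for a 2-fold difference in mean CPM per well, 20 CPM and reads in 25% of wells on the higher side, and a 2-fold difference against each lymph node pool. It kept 753 genes as higher (6.72% of measured genes) and 1.74% as lower. Higher genes made up 79.4% of calls, and 63.5% once ratios were centred on the median of measured genes, which left 488 higher. Leaving out any 1 pool gave more calls: 1267 genes were higher without pool A, 1061 without pool B and 1254 without pool C. The genes called lower were then 1.92%, 2.29% and 3.57% of measured genes. The condition on the pool left out falls away from the call rule, which by itself lets more genes pass. The rule is also uneven between directions: a gene with no reads in a pool can be called higher but not lower. Higher genes made up 85.5%, 80.5% and 75.8% of calls without pools A, B and C. Counts over gene lists below are to be read against 33.4% higher and 19.4% lower over all measured genes, and counts of calls against 6.72% and 1.74%. The lists were chosen with earlier results of these data known, so a list count above these shares describes the list and is no independent support.

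**Figure D1:**
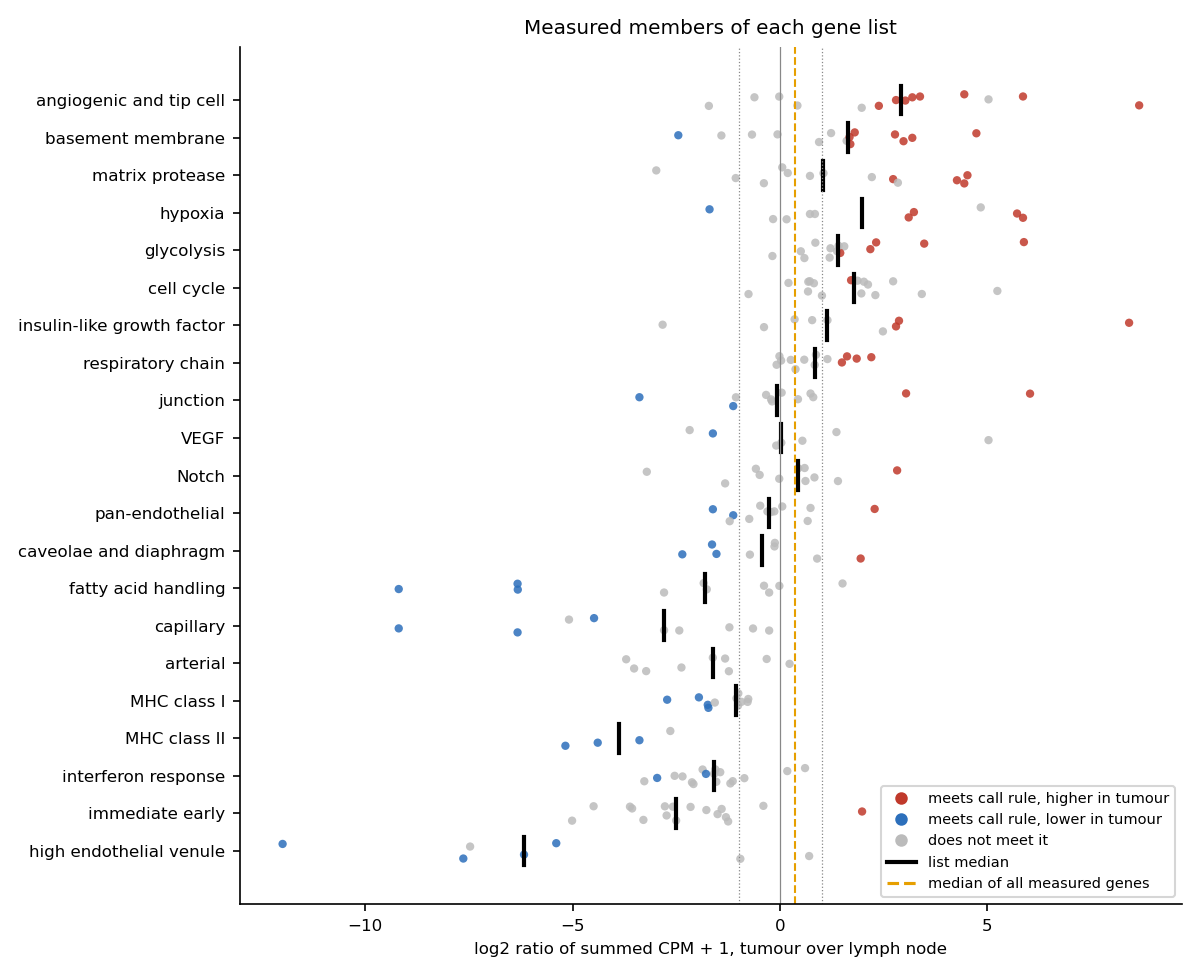
Each point is 1 measured gene of a list, placed by its log2 ratio of summed CPM plus 1, tumour over lymph node. Black bars are list medians, the dashed line is the median of all measured genes, and the tip cell list (median 2.91) lies right of it while the high endothelial venule list (median -6.17) lies left.

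The genes used as markers of tumour and lymph node blood endothelium split both ways. Apln, which encodes the sprouting ligand apelin, lies at chromosome X, 48025146 to 48034853, minus strand (GRCm38, GENCODE vM21). It had reads in 40 of 84 (47.6%, 36.6 to 58.8%) tumour wells and in 0 of 47 lymph node wells, where a count of 0 allows a share of wells with a read of up to 6.38% by the floor of 3 counts and 7.55% by the exact binomial interval. Per well the lowest, median and highest levels were 0, 0 and 4248 CPM in tumours and 0 CPM throughout in lymph nodes. Summed over wells it stood at 403 CPM (398.05 to 407) in tumours and was at least 3375-fold higher than a lymph node floor of 3 reads. About as many tumour wells lacked Apln as held it.

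Angpt2, the Tie2 ligand that loosens vessels (chromosome 8, 18690263 to 18741562, minus strand), was read in 27 of 84 (32.1%, 22.4 to 43.2%) tumour wells and 7 of 47 (14.9%, 6.2 to 28.3%) lymph node wells. Its levels per well were 0, 0 and 3419 CPM in tumours and 0, 0 and 780.1 CPM in lymph nodes, so the wells overlap at 0 and 7 tumour wells lay above every lymph node well. The sums were 262.7 CPM (259.1 to 266.3) in tumours and 24.5 CPM (22.6 to 26.5) in lymph nodes, a log2 ratio of 3.37, or 2.33, 7.89 and 7.50 against pools A, B and C. Nearly all lymph node reads came from pool A, at 51.4 CPM.

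Plvap, which builds the diaphragms of fenestrae and caveolae (chromosome 8, 71497765 to 71511752, minus strand), went the other way. It had 0, 776 and 6570.2 CPM (lowest, median, highest) per tumour well and 0, 5245 and 16289.6 CPM per lymph node well. The groups overlap, yet 17 of 47 lymph node wells exceeded every tumour well. Its sums were 1194 CPM (1186 to 1202) in tumours and 6119 CPM (6089 to 6149.9) in lymph nodes (log2 ratio -2.36), and it was lower against each pool. Ly6c1, a surface protein of capillary endothelium (chromosome 15, 75044018 to 75048830, minus strand), had 0, 648 and 2939 CPM per tumour well and 0, 1066 and 6674 CPM per lymph node well, with a ratio of -1.22. It missed the call rule because the ratio against pool C was -0.39. Ly6c1 has a near-identical copy, Ly6c2, with which reads may be shared, and over 3 measured Ly6 genes the median ratio was -0.65.

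**Figure D2:**
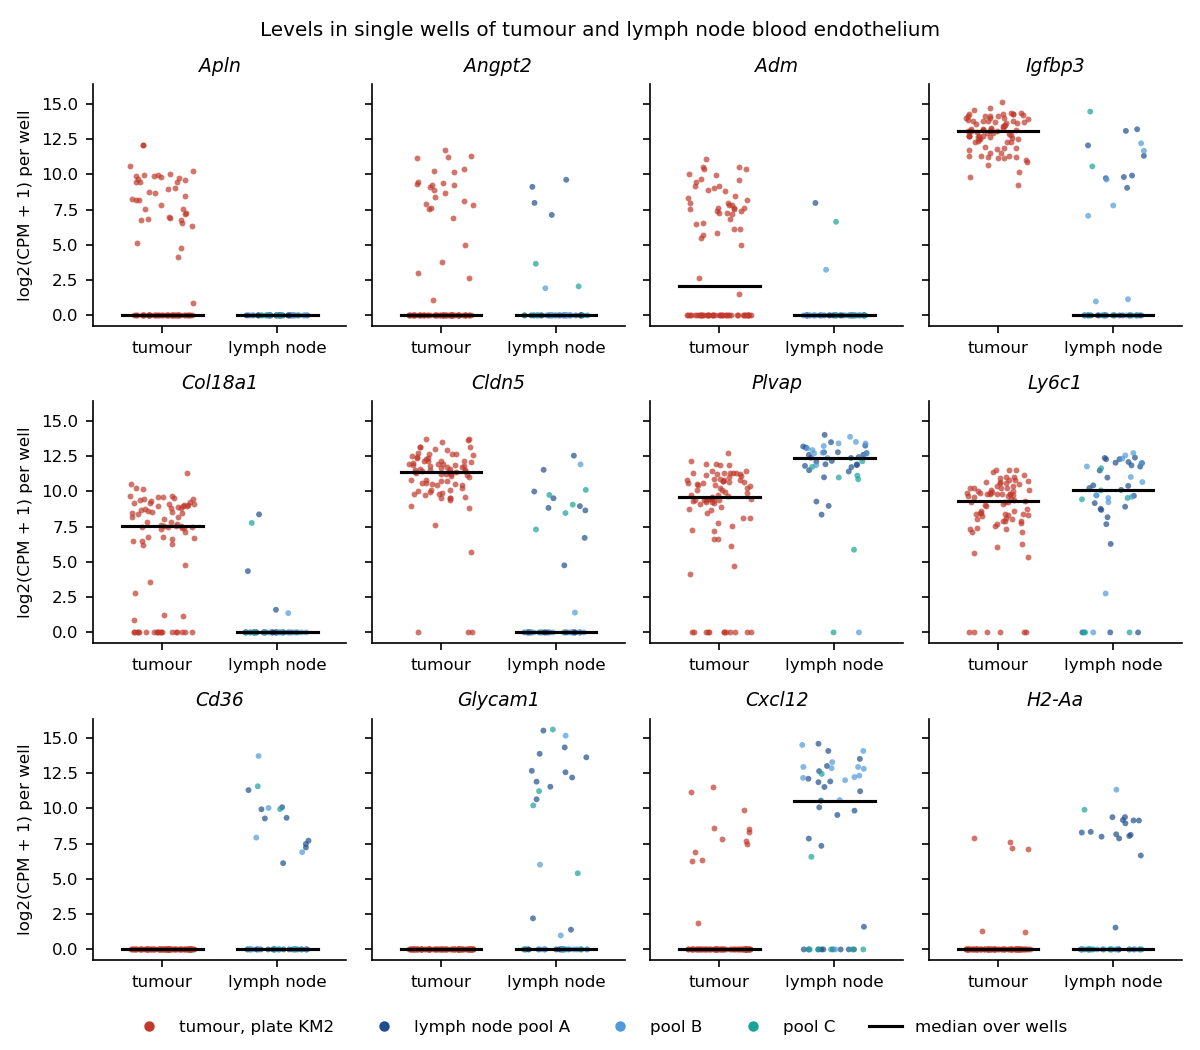
Levels of 12 genes in each tumour well (left, red) and each lymph node well (right, coloured by pool) as log2(CPM + 1), with black lines at the median over wells. Apln is at 0 in every lymph node well, Glycam1 and Cd36 are at 0 in every tumour well, and most other genes overlap.

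The 12 genes with the highest ratios among called genes with reads in at least 50% of tumour wells were low or absent in lymph node blood endothelium. Scgb3a1, a small secreted protein, had reads in 44 of 84 (52.4%, 41.2 to 63.4%) tumour wells, with 0, 2.33 and 7346 CPM per well, and 0 reads in lymph nodes, so that 257.7 CPM (254.2 to 261.3) was at least 2161-fold higher. Akr1b8, an aldo-keto reductase, and Akap12, a kinase scaffold, also had 0 lymph node reads, at 127.1 and 90.02 CPM in tumours. Mgat4a, an N-glycan branching enzyme, had 0, 121.2 and 4309 CPM per tumour well against 0, 0 and 3.3 CPM per lymph node well. On 3 lymph node reads, it was 1922-fold (658 to 9320.1) higher. Dbn1 (drebrin, which binds actin) stood at 199.6 CPM in tumours against 0.318 CPM in lymph nodes, Myh10 (non-muscle myosin) at 106.1 CPM in tumours against 0.0795 CPM in lymph nodes, 1335-fold (369.4 to 11025) on 2 lymph node reads, and Tmsb10 (thymosin beta 10) at 1662 CPM in tumours against 26.1 CPM in lymph nodes. Tmsb10 separated the sides in full, with 589, 1484 and 5853 CPM per tumour well and 0, 13.2 and 408 CPM per lymph node well, and 84 of 84 tumour wells lay above every lymph node well. AA467197 was 3595-fold (645 to 141995) higher on 1 lymph node read. The others were the lipoprotein receptor gene Lsr (ratio 6.63), the carboxypeptidase gene Cpe (6.54), the potassium channel subunit gene Kcne3 (6.37) and Oaf (6.20).

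The 12 genes with the lowest ratios, by the same rule for lymph node wells, were led by Itih5. Itih5, a hyaluronan-binding matrix protein, had reads in 1 of 84 tumour wells and in 24 of 47 (51.1%, 36.1 to 65.9%) lymph node wells, at 0.633 CPM in tumours against 312.5 CPM in lymph nodes (ratio -7.58). Cxcl12, the chemokine that retains leukocytes and stem cells, had 0, 0 and 2946 CPM per tumour well and 0, 1489 and 24248 CPM per lymph node well, and 20 lymph node wells exceeded every tumour well. Enpp2 (autotaxin, which makes lysophosphatidic acid) stood at 54.9 CPM in tumours against 2351 CPM in lymph nodes, Apoe at 34.3 CPM in tumours against 2686 CPM in lymph nodes, Clu (clusterin) at 154.8 CPM in tumours against 3992 CPM in lymph nodes and Cd300lg, a lymphocyte-binding mucin-like protein, at 45.5 CPM in tumours against 1041 CPM in lymph nodes. Apoe reads in tumour wells were few: thinning lowered the share of tumour wells with a read to 20.7%, against 42.9% with all reads. Apoe stood at 44202 CPM in tumour macrophages (plate KM1). The rest were Sult1a1 (ratio -5.06), Hspb1 (-4.34), Plscr2 (-4.32), Lifr (-4.01), Kctd12 (-3.69) and Gbp6 (-3.54).

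**Figure D3:**
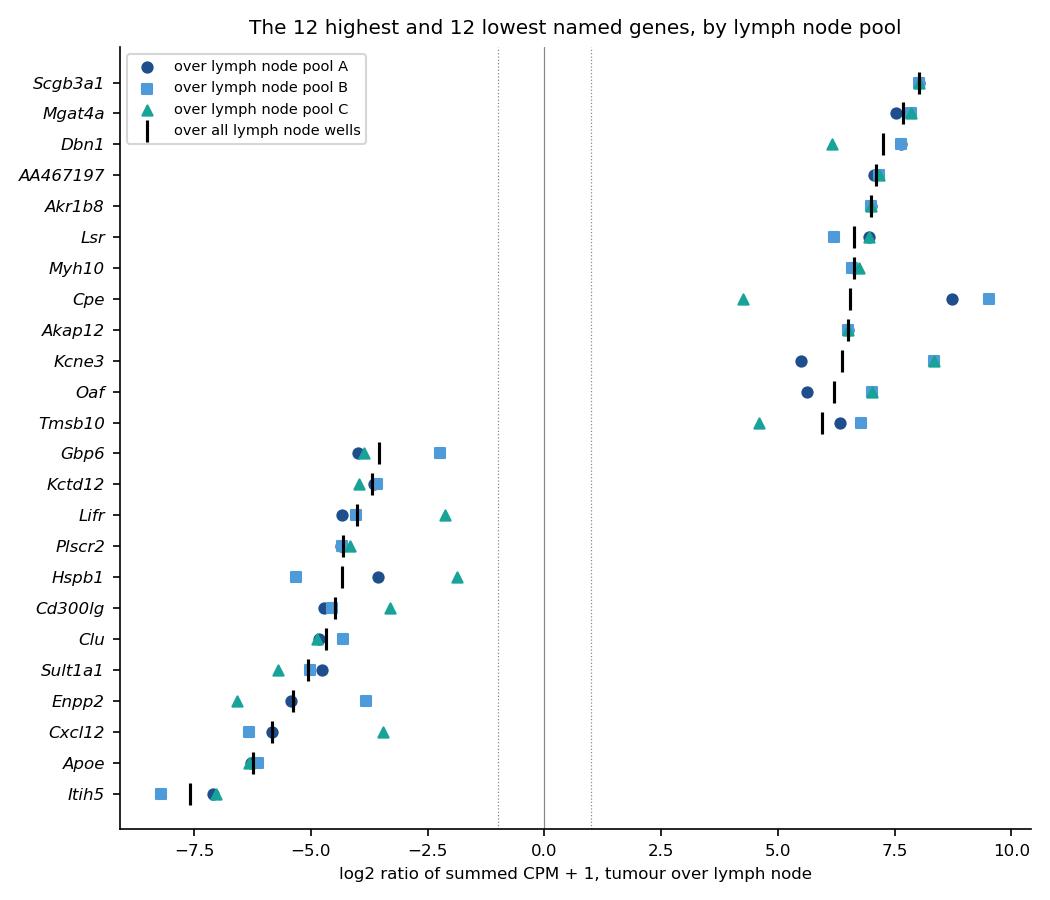
Log2 ratios (tumour over lymph node, summed CPM plus 1) of the 12 highest and 12 lowest named genes against pools A, B and C, with a black bar for all lymph node wells. All 24 keep their side of 0 in each pool, which the call rule required, while Cpe and Hspb1 vary most between pools.

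By share of wells at equal depth, the 8 genes most in favour of tumours were partly others. S100a6, a calcium-binding protein, was detected in 98.8% of tumour and 17.8% of lymph node wells after thinning, Fscn1, the actin-bundling protein of filopodia, in 97.6% of tumour and 20% of lymph node wells, and Tubb6, a beta tubulin, in 90.2% of tumour and 13.3% of lymph node wells. Cpe, Fn1 (fibronectin), Nid2 (nidogen), Bmp2k and Xist completed the 8. On the lower side were Apoe, Cd300lg, Clu, Cxcl12, Enpp2 and Itih5 again, with Jam3, a junctional adhesion molecule, in 23.2% of tumour and 73.3% of lymph node wells, and Cd24a, a mucin-like surface protein, in no thinned tumour well and 53.3% of lymph node wells. With all reads Cd24a was read in 1 of 84 (1.19%, 0.0301 to 6.46%) tumour and 26 of 47 (55.3%, 40.1 to 69.8%) lymph node wells. It had 0 CPM in pool C, so its difference rested on pools A and B.

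Genes of sprouting vessels were mostly higher. Of angiogenic and tip cell genes, at least 2-fold differences numbered 10 higher and 1 lower among 14 measured (median ratio 2.91), and 8 met the call rule as higher and 0 as lower, against 6.72% and 1.74% of all measured genes. Medians over pools A, B and C were 3.03, 2.51 and 2.71. Summed over the list, the lowest, median and highest tumour wells held 1232, 13099 and 36548 CPM and lymph node wells 0, 1023 and 23796 CPM. Igfbp3 dominated the sum: its levels were 615, 8484 and 34908 CPM per tumour well and 0, 0 and 22141 CPM per lymph node well, with reads in every tumour well and in 17 of 47 lymph node wells. Adm, the vasodilator adrenomedullin, had 0, 3.63 and 2209.5 CPM per tumour well and 0, 0 and 248.9 CPM per lymph node well. Plaur, the urokinase receptor, stood at 214.1 CPM in tumours against 8.91 CPM in lymph nodes, Trp53i11 at 1569.7 CPM in tumours against 192.6 CPM in lymph nodes, and Pgf, a VEGF receptor ligand, at 31.6 CPM in tumours against 0 CPM in lymph nodes but in 9 tumour wells. Tip cell genes did not all side with tumours: Esm1 stood at 59.6 CPM in tumours against 198.2 CPM in lymph nodes, Dll4, the Notch ligand, at 222.4 CPM in tumours against 225.6 CPM in lymph nodes, and Pdgfb at 100.9 CPM in tumours against 155.4 CPM in lymph nodes. Within tumours, Apln and Adm were read together in 31 wells, of 40 and 43, Apln and Plaur in 32, of 40 and 59, and Apln and Angpt2 in 19, of 40 and 27. Apln was thus read in 72.1% of Adm wells, 54.2% of Plaur wells and 70.4% of Angpt2 wells, against 47.6% of all tumour wells. Whether these genes go together, or deeper wells hold more of each, was not tested.

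The surface genes known from tumour vessels were also mostly higher: 7 of 9 measured genes were at least 2-fold higher, 1 at least 2-fold lower and 1 within 2-fold (median 1.37, or 2.20 without pool B). Cd276, an immune checkpoint protein, had 96.4 CPM in tumours, in 36 wells, and 0 lymph node reads, at least 808-fold higher. Antxr1, an anthrax toxin receptor that binds collagen, stood at 41.4 CPM in tumours against 0.437 CPM in lymph nodes, Mcam (CD146) at 867 CPM in tumours against 147.02 CPM in lymph nodes and Pxdn, which crosslinks collagen IV, at 177.1 CPM in tumours against 21.7 CPM in lymph nodes. Mmrn2, the matrix ligand of Cd93 and Clec14a, was lower, at 243.8 CPM in tumours against 659 CPM in lymph nodes, while Cd93 stood at 995 CPM in tumours against 386 CPM in lymph nodes and Clec14a at 581 CPM in tumours against 742 CPM in lymph nodes.

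Basement membrane genes were largely higher. In this list, 9 of 14 were 2-fold or more higher and 2 as much lower (median 1.64), and the median was positive against each pool (1.61, 1.90 and 2.10 over pools A, B and C). Col18a1, the source of endostatin, had 0, 184.5 and 2558 CPM per tumour well and 0, 0 and 327.3 CPM per lymph node well, and 34 tumour wells exceeded every lymph node well. Sparc, a collagen chaperone of the matrix, had 201.7, 4561 and 9040.1 CPM per tumour well against 0, 1142 and 4769 CPM per lymph node well. The laminin chains Lamb1 and Lama4 stood at 493 CPM in tumours against 71.4 CPM in lymph nodes and 375.7 CPM in tumours against 116.97 CPM in lymph nodes, the collagen IV chain Col4a2 at 1752 CPM in tumours against 503 CPM in lymph nodes, Nid2 at 616 CPM in tumours against 66.7 CPM in lymph nodes and Fn1 at 581 CPM in tumours against 72.95 CPM in lymph nodes. The other collagen IV chain, Col4a1, stood at 2088 CPM in tumours against 686 CPM in lymph nodes, with a ratio of 0.44 against pool C. Col15a1 was lower, at 26.5 CPM in tumours against 149.7 CPM in lymph nodes, and Hspg2 (perlecan) stood at 197.5 CPM in tumours against 528 CPM in lymph nodes.

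Enzymes that cut or free matrix were higher in part. Among proteases and their inhibitors, at least 2-fold differences numbered 7 higher and 2 lower among 13 measured (median 1.05, or 1.65 without pool A and 1.63 without pool B). The median was 0.78 without pool C and 0.70 with ratios centred on the median of measured genes. Over all alternatives it ranged from 0.70 to 2.37, so it does not stay past 2-fold. Mmp14, the membrane-bound collagenase, stood at 496 CPM in tumours against 74.2 CPM in lymph nodes, Adamts4 at 115.2 CPM in tumours against 5.05 CPM in lymph nodes, and Plat, tissue plasminogen activator, at 218.5 CPM in tumours against 8.59 CPM in lymph nodes. The inhibitor genes parted: Timp1 had 50.98 CPM in tumours against 10.2 CPM in lymph nodes, Timp2 13.8 CPM in tumours against 116.4 CPM in lymph nodes and Timp3 629.7 CPM in tumours against 1322 CPM in lymph nodes, of which none met the call rule. For matrix receptors, 2 of 10 measured genes were at least 2-fold higher, 2 at least 2-fold lower and 6 within 2-fold (median 0.64); the called ones were Itgb1, the common beta chain, at 1511 CPM in tumours against 283.8 CPM in lymph nodes, and Itgb3, partner of alpha v, at 96.3 CPM in tumours against 17.8 CPM in lymph nodes. In the mesenchymal transition list 3 of 7 were 2-fold or more higher and 3 as much lower, with Vim at 2547 CPM in tumours against 527 CPM in lymph nodes and Acta2 and Twist1 at 0 reads on both sides.

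Junction genes went both ways. Cldn5, the main tight junction claudin of endothelium, had 0, 2684.3 and 13153 CPM per tumour well and 0, 0 and 5870.5 CPM per lymph node well, with reads in 96.4% of tumour and 34.04% of lymph node wells. Ocln (occludin) had 64.2 CPM in tumours, in 27 wells, and 0 lymph node reads, at least 538-fold higher. Jam3 was lower, at 42.6 CPM in tumours against 456 CPM in lymph nodes, and over the list at least 2-fold differences numbered 2 higher and 3 lower among 12 measured (median -0.08, or -0.38 without pool A, 0.40 without pool B and 0.08 without pool C). For caveolae and diaphragms, 1 of 8 measured genes were at least 2-fold higher, 3 at least 2-fold lower and 4 within 2-fold: Cav1 (caveolin 1) stood at 469.5 CPM in tumours against 1361 CPM in lymph nodes and Sdpr (cavin 2) at 80.3 CPM in tumours against 252.4 CPM in lymph nodes, both lower with Plvap, whereas Ptrf (cavin 1) was higher, at 523 CPM in tumours against 135.3 CPM in lymph nodes.

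Growth factor ligands and receptors were mixed. In the VEGF list 2 of 7 were 2-fold or more higher and 2 as much lower (median 0.03, or -0.27 without pool A, -0.05 without pool B and 0.05 without pool C), with Kdr lower and Flt1, the decoy receptor, at 1171 CPM in tumours against 1146 CPM in lymph nodes. Nrp1, a VEGF co-receptor, stood at 249.5 CPM in tumours against 1134 CPM in lymph nodes, but its ratio against pool C was -0.16. Among Angpt and Tie genes only Angpt2 was past 2-fold: Tek (Tie2) had 224.9 CPM in tumours against 141.5 CPM in lymph nodes, Tie1 296.7 CPM in tumours against 366.7 CPM in lymph nodes and the phosphatase gene Ptprb 269.1 CPM in tumours against 365.7 CPM in lymph nodes, and Angpt1 had 0 reads on both sides. The apelin receptor Aplnr stood at 647 CPM in tumours against 328.8 CPM in lymph nodes, and the adrenomedullin receptor parts Calcrl and Ramp2 at 141.9 CPM in tumours against 159.03 CPM in lymph nodes and 546 CPM in tumours against 389.7 CPM in lymph nodes; over this list at least 2-fold differences numbered 2 higher and 0 lower among 6 measured (median 0.73). Notch genes lay mostly within 2-fold (median 0.44, or 0.15 without pool A and 0.14 without pool B): 2 of 11 measured genes were at least 2-fold higher, 2 at least 2-fold lower and 7 within 2-fold. Hes1, a Notch target, stood at 206.8 CPM in tumours against 28.4 CPM in lymph nodes, and Lfng, which glycosylates Notch, at 0.995 CPM in tumours against 17.5 CPM in lymph nodes. In the BMP and endoglin list 2 of 13 were 2-fold or more higher and 6 as much lower (median -0.57, or -0.32 without pool B), with Tgfbr2 at 200.7 CPM in tumours against 856 CPM in lymph nodes and Eng (endoglin) at 893 CPM in tumours against 2073 CPM in lymph nodes.

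Insulin-like growth factor binding proteins were higher in part. Igfbp5 had 0, 0 and 4496 CPM per tumour well and 0 lymph node reads, with a tumour sum of 339.99 CPM (335.9 to 344.1) that was at least 2851-fold higher. Igfbp4 stood at 479 CPM in tumours against 64.8 CPM in lymph nodes and Igfbp7 at 5259 CPM in tumours against 6878 CPM in lymph nodes, and in this family at least 2-fold differences numbered 5 higher and 1 lower among 9 measured (median 1.14, or 1.73 without pool B). The family median was 0.80 without pool A and 0.79 with ratios centred on the median of measured genes. Over all alternatives it ranged from 0.79 to 2.03, so it does not stay past 2-fold. Among nutrient transporters 4 of 11 measured genes were at least 2-fold higher, 2 at least 2-fold lower and 5 within 2-fold (median 0.74, or 0.41 without pool A, 1.55 without pool B and 0.48 without pool C), with medians of 1.14, -0.10 and 3.90 over pools A, B and C, so that direction and size varied with the pool. Slc39a8, a zinc importer, had 128.9 CPM in 41 tumour wells and 0 lymph node reads, at least 1081-fold higher, whereas Slc6a6, the taurine transporter, was lower, at 21.3 CPM in tumours against 140.98 CPM in lymph nodes.

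Genes that low oxygen is known to raise were higher in part. Of the hypoxia list, 5 of 10 were 2-fold or more higher and 1 as much lower (median 1.97, or 3.96 without pool A), and 4 met the call rule as higher and 1 as lower. Over all measured genes 33.4% were at least 2-fold higher and 6.72% called higher. Medians over pools A, B and C were 2.04, 4.04 and 4.85. Slc2a1, the glucose transporter GLUT1, had 0, 523 and 8014 CPM per tumour well and 0, 0 and 969 CPM per lymph node well, and 25 tumour wells exceeded every lymph node well. Ankrd37 stood at 170.3 CPM in tumours against 2.27 CPM in lymph nodes, Ero1l, an oxidase of protein folding, at 124.8 CPM in tumours against 12.4 CPM in lymph nodes, and Egln3, the oxygen sensor PHD3, at 29.9 CPM in tumours against 0.0795 CPM in lymph nodes, 375.6-fold (103.9 to 3104) on 2 lymph node reads. Ndrg1, also known as a hypoxia gene, was lower, at 161.4 CPM in tumours against 526 CPM in lymph nodes, and Bnip3 and P4ha1 stood at 51.3 CPM in tumours against 28.2 CPM in lymph nodes and 66.4 CPM in tumours against 59.4 CPM in lymph nodes. The hypoxia-inducible factors bind a core of ACGTG. The promoters of Slc2a1 and Ankrd37, the 250 bases before the start in RefSeq (GRCm38.p6), 5′ to 3′ along the gene, are shown because both genes were among the called ones, with that core on either strand in capitals.
Slc2a1 promoter (chromosome 4, 119108495 to 119108744, plus strand): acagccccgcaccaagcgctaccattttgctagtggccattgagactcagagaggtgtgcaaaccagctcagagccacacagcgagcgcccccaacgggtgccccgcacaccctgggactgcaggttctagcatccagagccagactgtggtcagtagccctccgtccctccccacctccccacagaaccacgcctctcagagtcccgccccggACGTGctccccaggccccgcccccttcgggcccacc
Ankrd37 promoter (chromosome 8, 45999851 to 46000100, minus strand): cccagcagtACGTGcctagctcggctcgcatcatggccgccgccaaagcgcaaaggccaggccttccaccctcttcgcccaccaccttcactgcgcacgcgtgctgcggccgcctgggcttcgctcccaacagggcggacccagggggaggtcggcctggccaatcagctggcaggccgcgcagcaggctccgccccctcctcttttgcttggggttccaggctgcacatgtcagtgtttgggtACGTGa
Slc2a1 held 1 match and Ankrd37 2. Of 9 hypoxia genes with a promoter in the table, 8 held the core (88.9%), against 18.5% of 27025 genes with a promoter. A match is a description of the letters only, and the list was made of genes known to respond.

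Glycolysis genes were mostly higher. In the list, at least 2-fold differences numbered 10 higher and 0 lower among 14 measured (median 1.39). Pkm, pyruvate kinase, had 16.997, 1597 and 6153 CPM per tumour well and 0, 285.8 and 1970.0 CPM per lymph node well. Tpi1 stood at 423 CPM in tumours against 37.2 CPM in lymph nodes, Pgk1 at 328.8 CPM in tumours against 71.96 CPM in lymph nodes, and Slc16a3, the lactate exporter, at 57.8 CPM in tumours against 0 reads in lymph nodes, at least 485-fold higher. Pfkfb3, the glycolytic activator of tip cells, had 9.64 CPM in tumours against 11.1 CPM in lymph nodes, and Hk2 had 0 reads on both sides. Of the respiratory chain, 5 of 13 measured genes were at least 2-fold higher, 0 at least 2-fold lower and 8 within 2-fold, a share close to the 33.4% higher over all measured genes (median 0.84, or 0.36 without pool A). The 4 called, Sdhb, Cox4i1, Cox5a and Cox6c, had ratios of 1.61, 1.49, 1.85 and 2.20. With ratios centred within classes of transcript length the glycolysis median was 0.92 and that of the respiratory chain 0.27.

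Cell cycle genes leaned to the tumour side. Here 10 of 16 were 2-fold or more higher and 0 as much lower (median 1.79, or 5.55 without pool A), yet only Hmgb2 met the call rule. Cdk1 had reads in 20 of 84 tumour wells and 1 of 47 lymph node wells, and Mki67, the proliferation antigen, in 12 and 2. Mki67 was lower by level, at 37.3 CPM in tumours against 63.9 CPM in lymph nodes, and a single pool A well carried 56.5% of all lymph node reads of the list. Medians over pools A, B and C were 1.00, 5.89 and 5.78.

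Capillary and lipid-handling genes were lower. Of capillary genes, at least 2-fold differences numbered 0 higher and 7 lower among 9 measured (median -2.80), and in the fatty acid list 1 of 10 measured genes were at least 2-fold higher, 6 at least 2-fold lower and 3 within 2-fold (median -1.80, or -0.60 without pool A, or -2.28 with genes at 0 reads set to their bound). Cd36, the fatty acid translocase, had 0 reads in 84 tumour wells and 0, 0 and 13275 CPM per lymph node well, so that it was at least 15065-fold lower. Cd36 was read in 15 of 47 lymph node wells, in all 3 pools, but its highest level was in a pool B well, and the next highest well had 3005 CPM. A single pool B well carried 46.8% of all lymph node reads of the fatty acid list. Medians over pools A, B and C were -3.13, -2.98 and -0.39 for the capillary and -2.67, -1.02 and 0.11 for the fatty acid list. Slc27a3, an acyl-CoA synthetase, also had 0 tumour reads against 79.04 CPM in lymph nodes. Fabp4, the fatty acid carrier, stood at 3.76 CPM in tumours against 381.4 CPM in lymph nodes, Car4, a carbonic anhydrase of capillaries, at 2.6 CPM in tumours against 121.4 CPM in lymph nodes, and Rgcc at 207.2 CPM in tumours against 1121 CPM in lymph nodes. Rgcc had 0 reads in pool C, where its ratio was 7.70. Gpihbp1, which anchors lipoprotein lipase, was within 2-fold, at 299.1 CPM in tumours against 359.1 CPM in lymph nodes.

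Arterial and venous genes gave no single direction. For arterial genes, 0 of 9 were 2-fold or more higher and 7 as much lower (median -1.62), but none met the call rule, and medians over pools A, B and C were -0.84, 2.28 and -1.25. The connexin gene Gja5 stood at 3.35 CPM in tumours against 21.6 CPM in lymph nodes and Bmx, an arterial kinase, at 0.194 CPM in tumours against 12.7 CPM in lymph nodes. For venous genes, at least 2-fold differences numbered 2 higher and 0 lower among 6 measured (median 0.37, or 0.01 without pool B and 0.69 without pool C). Within 2-fold were Nr2f2, the venous fate factor, at 51.9 CPM in tumours against 27.6 CPM in lymph nodes, and Ackr1. Ackr1, the chemokine scavenger of venules, had 94.4 CPM in tumours against 174.6 CPM in lymph nodes. In flow and coagulation genes 4 of 11 measured genes were at least 2-fold higher, 4 at least 2-fold lower and 3 within 2-fold, with Klf2 at 67.2 CPM in tumours against 192.9 CPM in lymph nodes, thrombomodulin (Thbd) at 119.3 CPM in tumours against 492 CPM in lymph nodes and factor VIII (F8) at 0 tumour reads against 97.7 CPM in lymph nodes.

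High endothelial venule genes were mostly lower or at 0 in tumours. Here 0 of 7 were 2-fold or more higher and 5 as much lower (median -6.17, or -10.84 at the bound). Glycam1, the sulphated L-selectin ligand, had 0 reads in all 84 tumour wells and 0, 0 and 48823 CPM per lymph node well, which made it at least 105025-fold lower. The enzymes that finish that ligand, Fut7, Chst4 and Gcnt1, also had 0 tumour reads, against 197.9, 176.5 and 71.1 CPM in lymph nodes. B3gnt3, which extends the same sugar chains, was 260.6 CPM in tumours and 159.9 CPM in lymph nodes, with reads in 79.8% of tumour and 42.6% of lymph node wells, so 1 enzyme of the pathway was read in most tumour wells.

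Any read of the venule list was found in 39 lymph node and 76 tumour wells, but lymph node wells with several venule markers were a minority. A well with reads in at least 3 of Glycam1, Fut7, Chst4, Gcnt1, B3gnt3 and Enpp2 was taken as of venule type, which held for 0 of 84 tumour and 15 of 47 lymph node wells (10 in pool A, 2 in B and 3 in C). Among genes outside that marker set, Ccl21a, the chemokine that draws naive lymphocytes, had 26625 CPM in venule-type and 0.0595 CPM in other wells (15 and 32 of the lymph node wells), Apoe 7320.0 CPM in venule-type and 386 CPM in other wells, Clu 9957 CPM in venule-type and 1029.8 CPM in other wells and Cd74 2596 CPM in venule-type and 194.4 CPM in other wells. Cxcl12 ran the other way, at 49.5 CPM in venule-type and 6975 CPM in other wells, with Cd36 at 0 CPM in venule-type and 874 CPM in other wells, Rgcc at 0 CPM in venule-type and 1677 CPM in other wells and Ly6c1 at 476 CPM in venule-type and 2496 CPM in other wells. Plvap stood at 4045 CPM in venule-type and 7149 CPM in other wells, above the tumour sum in both kinds of well. Without the venule-type wells the list median was -0.29, and 1174 genes were called higher, where pool C kept too few wells to be required.

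Chemokines and adhesion molecules were mixed. Of chemokine genes, at least 2-fold differences numbered 3 higher and 3 lower among 9 measured (median -0.29, or -0.83 without pool B and -0.53 without pool C), the called ones being Cxcl12 and Ccl21a, at 296.9 CPM in tumours against 8833 CPM in lymph nodes. Ccl21a has near-identical copies that may share its reads. Cxcl1, which draws neutrophils, stood at 6.5 CPM in tumours against 140.7 CPM in lymph nodes, and Cxcl9, which draws T cells, at 97.3 CPM in tumours against 45.7 CPM in lymph nodes. For leukocyte adhesion, 3 of 9 measured genes were at least 2-fold higher, 2 at least 2-fold lower and 4 within 2-fold (median 0.05, or 0.33 without pool A), and none was called. Icam1 had 88.03 CPM in tumours against 374.5 CPM in lymph nodes, with a ratio of 0.12 against pool B, Vcam1 87.1 CPM in tumours against 95.8 CPM in lymph nodes, Selp (P-selectin) 82.2 CPM in tumours against 33.7 CPM in lymph nodes and Icam2 433 CPM in tumours against 302.8 CPM in lymph nodes.

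Antigen presentation genes were lower. Of MHC class I genes, 0 of 11 were 2-fold or more higher and 8 as much lower (median -1.05). H2-K1, a classical class I chain, had 46.2, 1823 and 6023 CPM per tumour well and 497, 6058 and 13396 CPM per lymph node well, and 24 lymph node wells exceeded every tumour well. H2-T23 stood at 79.8 CPM in tumours against 532 CPM in lymph nodes, the peptide transporter gene Tap2 at 70.4 CPM in tumours against 276.1 CPM in lymph nodes and B2m, the light chain, at 3376 CPM in tumours against 5746 CPM in lymph nodes. Class I genes are near-identical to one another, so reads may be split between them. All 4 measured class II genes were at least 2-fold lower (median -3.89, or -3.80, -3.26 and -4.77 over pools A, B and C). These differences rest on few wells in pools B and C: most lymph node wells with H2-Aa reads were in pool A. A single pool C well carried 27.2% of all lymph node reads of the class II list. H2-Aa had 0, 0 and 236.9 CPM per tumour well and 0, 0 and 2545 CPM per lymph node well, with reads in 6 of 84 tumour and 17 of 47 lymph node wells, and Cd74, the invariant chain, stood at 93.6 CPM in tumours against 991 CPM in lymph nodes. Ciita, the class II activator, had 0 tumour reads and reads in 1 lymph node well. Class I medians over pools A, B and C were -1.42, -1.03 and -0.98, and the class I median without pool A was -0.91.

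Interferon response genes were lower than in pools A and B and higher than in pool C. Over the list at least 2-fold differences numbered 0 higher and 14 lower among 17 measured (median -1.59), but medians over pools A, B and C were -1.94, -1.50 and 2.14, and 2 genes met the call rule, Irf7 at 37.9 CPM in tumours against 302.2 CPM in lymph nodes and Irf1 at 94.3 CPM in tumours against 327.6 CPM in lymph nodes. Pool C held few reads of Ifit1, Rsad2 and Usp18: Rsad2 had 21.97 CPM in tumours and 236.4, 310.3 and 0 CPM in pools A, B and C. Ifit1 had 21.3 CPM in tumours and 111.4, 217.01 and 0 CPM in the 3 pools. Interferon-activated factors bind 2 copies of GAAA with any 2 bases between, and class II promoters hold an inverted CCAAT box, ATTGG. Promoters of 1 gene of each list are shown with these letters, sought on both strands, in capitals.
Ifit1 promoter (chromosome 19, 34640639 to 34640888, plus strand): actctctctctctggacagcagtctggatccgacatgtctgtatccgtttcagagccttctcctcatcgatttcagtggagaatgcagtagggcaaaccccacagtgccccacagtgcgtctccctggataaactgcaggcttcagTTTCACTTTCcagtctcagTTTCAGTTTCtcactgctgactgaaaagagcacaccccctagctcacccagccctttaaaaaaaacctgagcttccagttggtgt
H2-Aa promoter (chromosome 17, 34287824 to 34288073, minus strand): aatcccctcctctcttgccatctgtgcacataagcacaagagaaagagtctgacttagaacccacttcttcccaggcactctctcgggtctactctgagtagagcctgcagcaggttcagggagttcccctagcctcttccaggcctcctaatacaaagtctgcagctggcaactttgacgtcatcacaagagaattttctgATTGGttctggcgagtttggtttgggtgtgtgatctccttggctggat
The Ifit1 promoter held 2 matches and that of H2-Aa 1. The interferon element stood in 10 of 14 list genes with a promoter (71.4%) and in 3.46% of all, and ATTGG in 37.5% of all, so that its presence in 1 promoter says little.

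Immediate early genes, which dissociation and sorting are known to raise, were lower than in pools A and B and higher than in pool C. In the list, 1 of 17 measured genes were at least 2-fold higher, 15 at least 2-fold lower and 1 within 2-fold (median -2.51, or -1.40 without pool B), and medians over pools A, B and C were -1.78, -3.50 and 1.50. Nr4a1 stood at 77.1 CPM in tumours and 1073, 5727 and 4.32 CPM in the 3 pools, and Egr1 at 121.8 CPM in tumours and 1722, 5546 and 14.3 CPM in these pools. For both genes pool C lay below tumours, and pools A and B above. Myc was the only member called, and it was higher, at 97.2 CPM in tumours against 23.9 CPM in lymph nodes. Its ratio was positive against each pool.

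Regulators of endothelial fate were mostly within 2-fold. Among transcription factor genes, 2 of 12 were 2-fold or more higher and 2 as much lower (median -0.21, or -0.09 without pool A, 0.16 without pool B and -0.37 without pool C), and none met the call rule. Fli1 and Elk3 stood at 244.004 CPM in tumours against 104.1 CPM in lymph nodes and 462 CPM in tumours against 201.01 CPM in lymph nodes, Sox17 at 160.1 CPM in tumours against 494 CPM in lymph nodes and Mef2c at 133.4 CPM in tumours against 597 CPM in lymph nodes, the last with a ratio of 0.10 against pool C. Among guidance genes at least 2-fold differences numbered 2 higher and 3 lower among 12 measured (median -0.20, or -0.43 without pool A): Efnb1, an ephrin, was lower, at 8.83 CPM in tumours against 173.5 CPM in lymph nodes, and Plxnd1, a semaphorin receptor, stood at 372.4 CPM in tumours against 147.1 CPM in lymph nodes.

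The other sorted groups place these levels. GFP+ endothelium from tumours (plates KM3 and KM4, 84 and 85 wells) would share the lymph node wells as its reference, so its values stand beside KM2 without a comparison. Apln had 403 CPM in KM2, 354.9 and 444 CPM in KM3 and KM4, and 0.0249 CPM in tumour macrophages. Igfbp3 had 9147 CPM in KM2, 6085 and 6177 CPM in KM3 and KM4, and Scgb3a1 257.7 CPM in KM2, 60.96 and 68.02 CPM in KM3 and KM4. Some genes that set tumour apart from lymph node blood endothelium were high in other lymph node cells: Cpe had 4793 CPM in lymph node GFP+ wells, Cldn5 3612 CPM in the 27 GFP- wells with Prox1 reads, and Mgat4a 124.5 CPM there. Tmsb10 had 269.6 CPM in tumour macrophages and 76.002 CPM in lymph node GFP+ wells. The macrophages and the lymph node GFP+ wells share no well with KM2 or the 47 lymph node wells but come from the same pair of tables. Of 714 genes called higher and measured there, 36.8% were at least 2-fold higher in macrophages than in lymph node GFP+ wells, against 25.4% of all genes measured there. Of the genes called lower, 70.3% were at least 2-fold lower in macrophages, against 29.9% of all. This pair also sets macrophages against endothelium, and a gene called lower had to be read in lymph node endothelium. Cell type, tissue and table cannot be told apart in these shares, and the part of each was not tested.

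**Figure D4:**
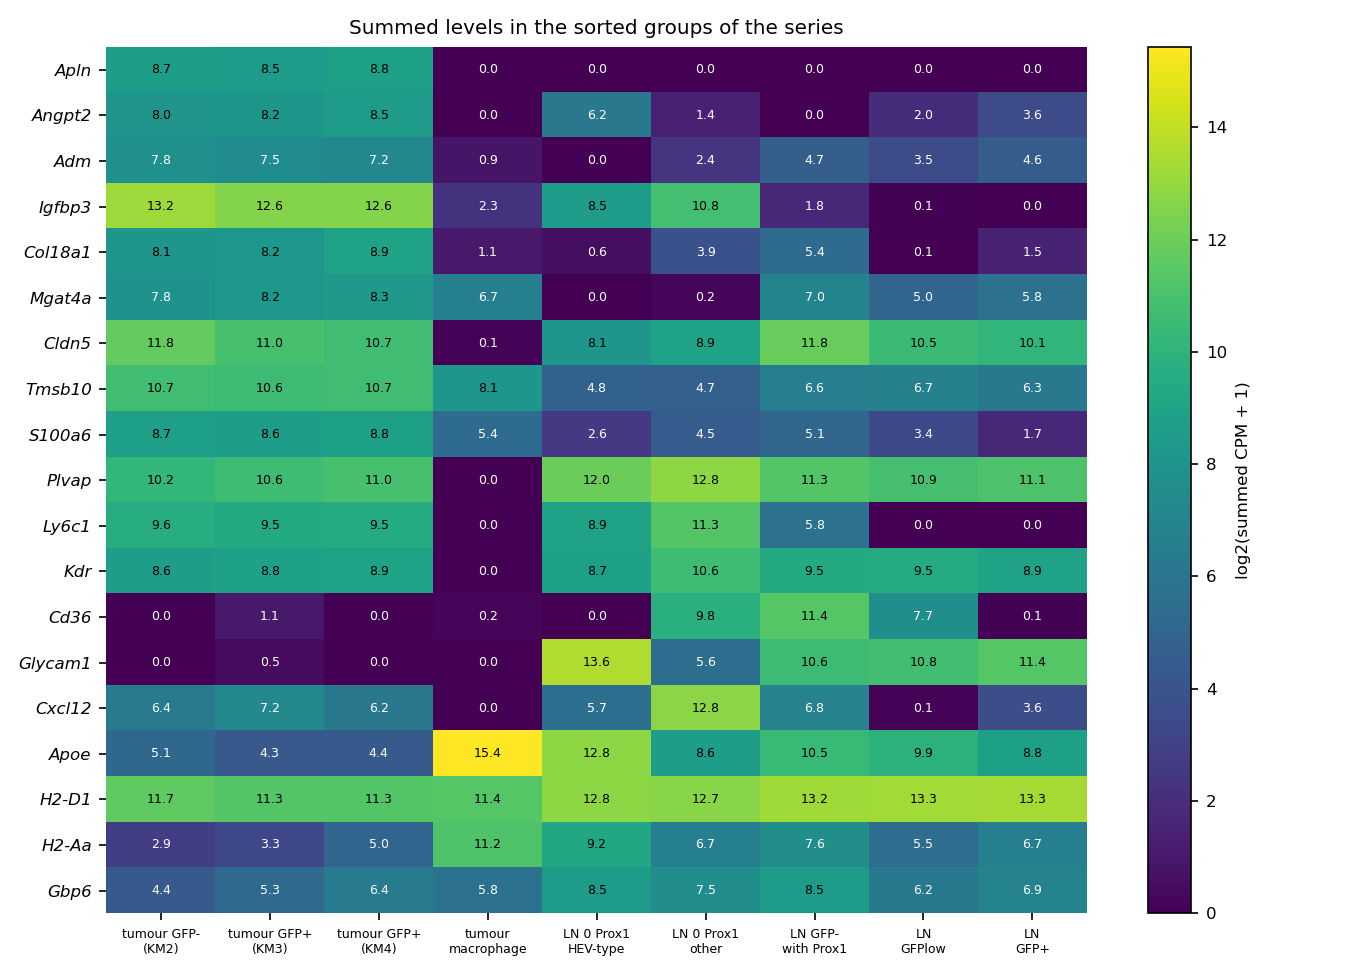
Summed levels of 19 genes, as log2(CPM + 1), in tumour groups (left) and lymph node (LN) groups (right), the 47 lymph node wells being split by venule-type markers. Apln is high in the 3 tumour endothelial plates alone among these groups, and Glycam1 is near 0 in all tumour groups.

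Sex-linked transcripts differed between the sides. Xist, the X inactivation RNA, had reads in 71 of 84 (84.5%, 74.99 to 91.5%) tumour wells and 2 of 47 (4.26%, 0.52 to 14.5%) lymph node wells, all in pool B, at 292.5 CPM in tumours against 17.97 CPM in lymph nodes. A read of Ddx3y, Kdm5d, Eif2s3y or Uty, which lie on the Y chromosome, was found in 2 of 84 tumour wells at a summed 0.0646 CPM, and in 23 of 47 lymph node wells at 133.2 CPM. Tumour macrophages and GFP+ tumour endothelium had Xist in 77.8 to 80% of wells, and pool B alone held Xist above trace levels among lymph node groups. Tissue and the sex of the animals, which no label names, cannot be told apart in these values. Xist and its antisense partner Tsix overlap, and whether the counting used strand is not given in the sources used here.

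**Figure D5:**
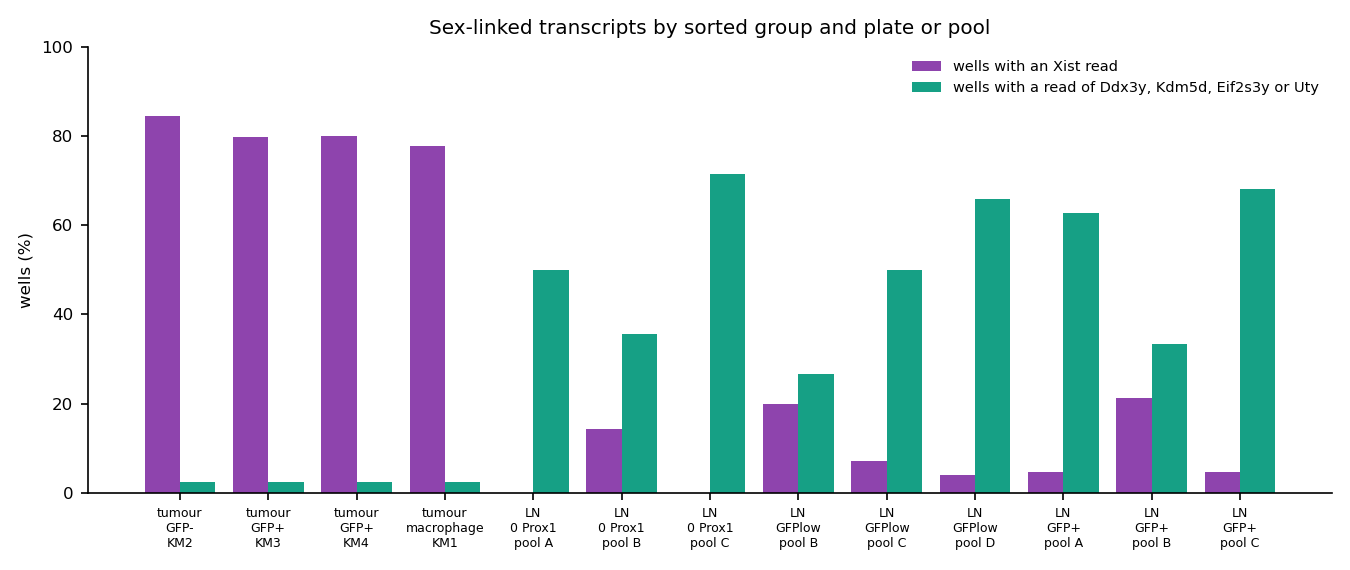
Share of wells (in percent) with an Xist read (purple) and with a read of any of 4 Y-linked genes (green), for each sorted group and plate or pool, tumour groups left and lymph node (LN) groups right. Xist is read in most wells of the 4 tumour plates, and Y-linked genes in lymph node pools.

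Transcript length moved with the ratios as well. Genes whose longest annotated transcript was at most 1000 bases had a median ratio of 1.08 (1015 genes), those over 1000 and up to 2000 bases 0.56, up to 4000 bases 0.26, up to 8000 bases 0.12 and those over 8000 bases -0.22 (572 genes). A length was known for 97.7% of measured genes. In the pair of tumour macrophages over lymph node GFP+ wells the same classes had medians of 0.99, 0.16, -0.19, -0.50 and -0.77. Short genes such as Tmsb10 and S100a6 belong to the first class. Centred within its class Tmsb10 had 4.86, S100a6 3.54 and Apln 8.40. With all ratios so centred, 475 genes were called higher, 471 of them among the 753.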

How the data were processed

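Raw read counts per gene in 2 tables were deposited by the authors, with no normalization, 1 column per sorted cell (a well); no column was left unused (0). Per the labels' protocols, cDNA was made with a modified SMART-seq2 method of 20 cycles and Nextera XT libraries, without molecular identifiers. FastQC 0.11.4, STAR 2.4.1b, Subread 1.4.6-p2 and the build mm10 are named in the submitters' processing notes, with no role or order; the strand setting of the counting is not given in the sources used here. Each well's depth and the filters stand in the opening of the results.

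Here, rows sharing a symbol were summed (51826 rows, 51734 symbols), reads were summed over the wells of a side and divided by their total, and log2 ratios were taken with a pseudocount of 1 CPM. Wells were also thinned to 100000 reads. Gene positions and transcript lengths come from GENCODE vM21 (GRCm38), promoters from RefSeq (GRCm38.p6). Computation used Python 3.11.15, numpy 2.4.6, pandas 2.3.3, scipy 1.17.1, and, for TMM factors, R 4.3.3 with edgeR 4.0.16. The code was tested on simulated data.

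No p-value was computed, since no label names an animal and each side is 1 sample. Genes were named by rule: the 12 highest and the 12 lowest ratios among called genes with reads in at least 50% of wells on the higher side, predicted, ribosomal and mitochondrial genes left out; the 8 largest differences in thinned share on each side; the markers; and up to 4 per list by size of ratio. Other genes were named for their known role after values were seen. The call rule asked for 20 CPM, 25% of wells and pools of at least 5 wells. Members and the 47 gene lists were chosen with earlier results of these data known. The alternatives numbered 19: pseudocounts, scalings, filters, thinning, per-well means, each pool left out, and subsets of wells.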

Additional observations from a re-analysis of the deposited data

How the results depend on the processing

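Of 19 alternatives, 17 were planned and 2, centring within transcript-length classes and keeping lymph node wells with up to 3 Prox1 reads, were chosen after seeing the data. Calls are given here as a share of the 11199 measured genes, 6.72% higher and 1.74% lower in the results. Centring on the median of measured genes gave 4.36% and 2.50%, TMM factors 5.15% and 2.19%, and length-class centring 4.24% higher, so that 63.5%, 70.2% and 63.8% of calls were higher. A stricter well filter (200000 reads, 2000 genes, 10% mitochondrial) gave 10.7% and 3.88%, and leaving out venule-type wells 10.5% and 3.18%. In both, pool C kept too few wells to be required by the call rule, which by itself lets more genes pass. Without 1 pool, and so without its condition in the call rule, calls ranged over 9.47 to 11.3% higher and 1.92 to 3.57% lower. Of the higher calls 95.9 to 98.4% were kept, and of the lower calls 66.7 to 97.4%. The hypoxia median was 0.84 with no filter on low genes and the class I median -0.99 after thinning. Without 1 pool the class I median ranged over -1.26 to -0.91 and the lymphatic median over -3.05 to 0.78, the sign turning without pool C. The glycolysis median was 0.92 with length-class centring, and the venule median -0.29 without venule-type wells, which removes its defining wells by construction. Signs also turned, among medians past 2-fold, for the haematopoietic (-0.046) and platelet (-0.13) medians with no filter, and for the lymphatic median without venule-type wells (0.80). In all, 16 of 42 list medians took the other sign under at least 1 alternative, the 3 just named and 13 that were within 2-fold as reported. Their ranges include -0.56 to 0.37 for endothelial transcription factors, -0.43 to 0.50 for junctions, -0.43 to 0.28 for VEGF genes, -0.09 to 0.57 for Notch genes and -0.88 to 1.00 for chemokines, and the 1 macrophage gene measured had -0.47 when thinned, so that these medians give no settled direction. For the other changes the cause was not tested. Of 41 named ratios, 39 kept their direction and side of 2-fold in all 19; Ptprc did not, and Ly6c1 was -0.99 with lymph node wells of up to 3 Prox1 reads kept. For 7 markers, shares of wells with a read stayed within their intervals when thinned. No paired analysis was possible because no result comes from a test and no label ties tumour to lymph node wells. With 7 wells, pool C limits what its levels can show: a gene absent there may be missed at this depth.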
